A study of Homo sapiens with 6 samples.

Results

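Natural antisense transcripts were examined in HCT116 cells through 287 genes whose symbol ends in -AS1 and whose partner symbol, without that ending, is also carried by a probe set. They were taken from 431 -AS1 symbols among 14884 named genes. Each gene was read by its probe set with the highest mean over the 6 arrays, and each antisense gene was set beside its sense partner. The RefSeq annotation classed 283 of the antisense genes as long noncoding RNAs and 286 of the partners as protein-coding. HCT116 is an established line from a human colorectal carcinoma, named so in the culture protocol and the study design and spelled HTC116 in the sample titles. Its cells were stably transduced and labelled as overexpressing miR-196b (3 arrays), or carried an empty vector by the same means (control, 3 arrays). In the sample titles the name of the microRNA is not spelled as miR-196b. Both groups are transduced cells in McCoy's medium with serum and antibiotics. The submitters describe biological replicates, with no word on separate transductions, so a p-value here reflects only how far these cultures differed among themselves. No untransduced cells are among the arrays.

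An antisense transcript is copied from the strand opposite to its partner gene, and may start beside the partner's promoter, overlap part of its body or run past its end. Some act on the partner in place, through its chromatin, its splicing or the stability and translation of its messenger RNA, and others work elsewhere or have no known role. Several of those measured here are known from tumour biology, among them the antisense RNAs of ZEB1, FOXD2, AFAP1 and LOXL1. MicroRNAs of the miR-196 family pair through the seed, bases 2 to 8, with target transcripts. The mature sequence of miR-196b is shown because the labels name it, and that of miR-196a because the probe set of MIR196A2 is described below. Capitals mark the seed (RefSeq, GRCh38.p14, with MIR196B at chr7:27169528-27169549, minus strand, and MIR196A2 at chr12:53991762-53991783, plus strand).
hsa-miR-196b-5p: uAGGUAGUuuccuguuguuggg
hsa-miR-196a-5p: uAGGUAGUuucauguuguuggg
The 2 share the seed.

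The probe set of MIR196B did not separate the groups, at 8.21, 7.93 and 8.01 in the arrays labelled miR-196b, against 8.09, 7.91 and 7.91 in control (log2 signal). The probe set of MIR196A2 was at 10.6, 10.5 and 10.8 in the arrays labelled miR-196b, against 3.09, 3.21 and 2.88 in control. The labels are thus not borne out by the probe set of the gene they name, so each direction given is that of the labelled arrays against control. Of the marker lists, 3 of 4 epithelial, 2 of 4 fibroblast and 1 of 4 blood markers were measured. EPCAM and KRT18 lay in the top percent of named probe sets (percentiles 99.1 and 99.3) and KRT8 at percentile 64.3, while the fibroblast and blood markers DCN, LUM and CD14 lay at percentiles 3.16 to 11.7. The array medians ran from 4.34 to 4.37, and the lowest correlation between any pair of arrays was r = 0.992 over named probe sets, a description only since genes share arrays.

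In the RefSeq annotation of GRCh38.p14, which served for neighbourhood only, the gene bodies of 250 pairs overlapped and those of 37 did not. The strand of both genes was given for 197 pairs, all on opposite strands. The start sites of 59 pairs lay within 1000 bases of each other, 130 overlapped with starts farther apart and 8 lay apart. Of the 59 close pairs, 27 diverged from each other and 32 faced each other across their first bases. The strand read by each probe was not used here, so whether signal from an overlapping partner entered that of the antisense gene was not tested.

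Promoter windows, 250 bases before to 50 after the start, are shown for pairs with close starts that the results below turn on (RefSeq, GRCh38.p14, each on its own gene's strand). In the diverging pair SSTR5-AS1 (chr16:1078682-1078981, minus strand) and SSTR5 (chr16:1078576-1078875, plus strand), capitals mark the 194 bases that both windows share.
SSTR5-AS1: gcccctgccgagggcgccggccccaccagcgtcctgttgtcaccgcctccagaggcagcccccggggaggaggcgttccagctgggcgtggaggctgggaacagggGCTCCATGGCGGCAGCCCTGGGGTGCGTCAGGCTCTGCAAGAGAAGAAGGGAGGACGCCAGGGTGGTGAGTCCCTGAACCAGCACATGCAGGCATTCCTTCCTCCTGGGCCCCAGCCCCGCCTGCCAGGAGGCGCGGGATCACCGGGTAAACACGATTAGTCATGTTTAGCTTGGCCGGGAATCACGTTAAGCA
SSTR5: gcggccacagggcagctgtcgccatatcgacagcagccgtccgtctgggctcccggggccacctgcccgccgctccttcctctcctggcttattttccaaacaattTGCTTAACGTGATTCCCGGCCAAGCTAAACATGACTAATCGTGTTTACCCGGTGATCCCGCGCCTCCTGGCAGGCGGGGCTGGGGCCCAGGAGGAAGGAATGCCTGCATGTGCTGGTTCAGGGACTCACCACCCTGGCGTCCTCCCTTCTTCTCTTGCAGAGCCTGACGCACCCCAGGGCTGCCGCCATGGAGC
In PAN3-AS1 (chr13:28139125-28139424, minus strand) and PAN3 (chr13:28138295-28138594, plus strand), whose starts face each other, capitals mark the GC box, GGGCGG on either strand.
PAN3-AS1: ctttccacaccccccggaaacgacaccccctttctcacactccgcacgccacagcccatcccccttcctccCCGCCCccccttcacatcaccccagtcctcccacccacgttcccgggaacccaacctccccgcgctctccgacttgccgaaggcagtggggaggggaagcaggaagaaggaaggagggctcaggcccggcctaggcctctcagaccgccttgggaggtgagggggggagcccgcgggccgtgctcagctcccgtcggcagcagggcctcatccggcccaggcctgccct
PAN3: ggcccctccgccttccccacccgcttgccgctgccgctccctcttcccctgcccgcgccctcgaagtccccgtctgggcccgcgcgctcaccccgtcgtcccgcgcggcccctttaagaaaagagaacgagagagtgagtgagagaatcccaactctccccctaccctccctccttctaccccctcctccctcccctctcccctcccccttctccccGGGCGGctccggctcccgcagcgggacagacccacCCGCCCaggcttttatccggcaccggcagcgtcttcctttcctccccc
In ZEB1-AS1 (chr10:31319046-31319345, minus strand) and ZEB2-AS1 (chr2:144519364-144519663, plus strand), capitals mark the E-box bound by ZEB factors, CAGGTG on either strand.
ZEB1-AS1: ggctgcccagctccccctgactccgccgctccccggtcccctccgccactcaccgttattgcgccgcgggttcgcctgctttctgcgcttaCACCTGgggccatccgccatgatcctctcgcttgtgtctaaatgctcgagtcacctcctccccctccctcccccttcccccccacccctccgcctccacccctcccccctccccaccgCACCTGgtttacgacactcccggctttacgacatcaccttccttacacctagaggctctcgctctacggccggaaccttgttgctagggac
ZEB2-AS1: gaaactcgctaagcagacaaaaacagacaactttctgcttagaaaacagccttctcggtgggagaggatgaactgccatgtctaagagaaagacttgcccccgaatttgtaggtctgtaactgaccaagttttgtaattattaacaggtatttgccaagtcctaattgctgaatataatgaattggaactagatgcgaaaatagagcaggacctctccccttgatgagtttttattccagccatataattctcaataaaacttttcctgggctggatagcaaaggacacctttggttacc

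The ZEB1-AS1 window held 2 such E-boxes and the ZEB2-AS1 window 0, with 21 and 4 CG pairs. A window was found for 222 of the 287 antisense genes and for 238 partners, out of 27305 in the table. The ZEB E-box was in 22.1% of the antisense windows, 18.5% of the partner windows and 20.6% of all windows. The GC box was in 45.0% of the antisense windows, 63.0% of the partner windows and 44.6% of all windows. The TATA box, TATAAA on either strand, was in 8.11% of the antisense windows, 7.98% of the partner windows and 11.95% of all windows. CCAAT on either strand was in 34.2% of the antisense windows, 31.9% of the partner windows and 35.7% of all windows. The motifs searched do not contain one another, though matches in a window can lie over each other. The median number of CG pairs was 17 in antisense windows, 25 in partner windows and 14 in all windows. In GC boxes and CG pairs the antisense windows lay nearer to the whole table than to the partner windows, and in TATA boxes nearer to the partner windows. A match describes the letters only.

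No antisense gene passed the test between the groups. In a limma fit over all 16098 named probe sets, 0 of 287 antisense genes and 0 of 287 partners were called at a Benjamini-Hochberg adjusted p below 0.05, where 9 probe sets, or 0.0559%, were called over the whole table. The smallest adjusted p was 0.318 for an antisense gene (ZEB2-AS1) and 0.144 for a partner (DENND5B). At an unadjusted p below 0.05, 25 antisense genes passed, of which 9 were higher in the labelled arrays and 16 lower, or 8.71%, beside 9.87% of all named probe sets. Higher probe sets made up 5.73% and lower ones 4.14% of the whole table. The groups did not overlap at 38 antisense genes, 15 higher and 23 lower, or 13.2%, beside 17.2% of all named probe sets, 10% higher and 7.18% lower. With the directions pooled, both shares lay below those of the whole table. Taken by direction, the higher antisense genes made up smaller shares than in the whole table and the lower ones larger shares, in both measures. These differences were not tested. In bulk RNA, a lower level in every cell cannot be told apart from fewer cells that express the transcript.

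The changes of the antisense genes were small. Of the 287, 130 had a higher mean in the labelled arrays and 157 a lower one. The median log2 change was -0.02, with quartiles at -0.13 and 0.07. Over all 14884 named genes the median was 0.01, with quartiles at -0.09 and 0.10. The largest antisense change was -0.61, and 1 antisense gene and 2 partners differed by at least 1.5-fold, as did 0.534% of all named probe sets. Among other noncoding symbols, the median was 0.00 for 144 -AS1 genes with no partner symbol, -0.01 for 458 LINC genes and 0.08 for 35 intronic and overlapping transcripts (-IT and -OT). None of these classes held a called gene, and the differences between classes were not tested.

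**Figure D1:**
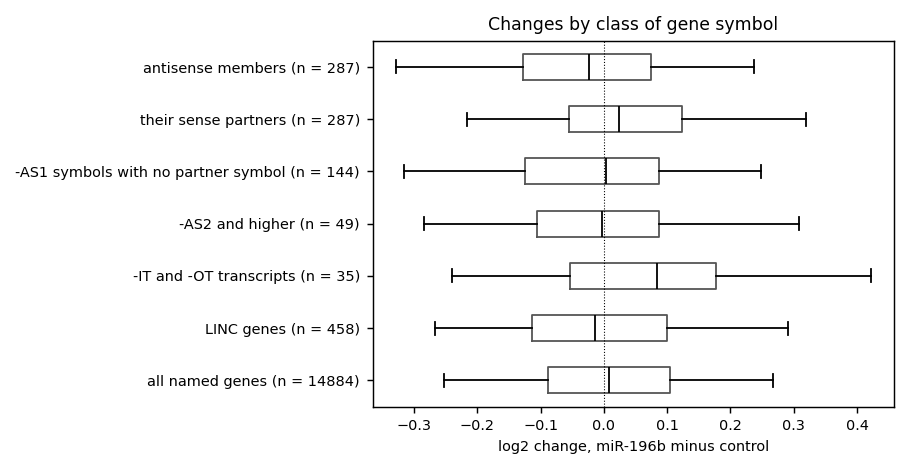
Log2 change (arrays labelled miR-196b minus control, horizontal axis) by class of gene symbol, 1 value per gene. Boxes span the quartiles with the median as a line, and whiskers run from the 5th to the 95th percentile. The antisense genes have a median of -0.02 and their partners one of 0.02, with boxes that overlap widely.

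Many of these transcripts gave dim signal. The mean of 193 antisense genes lay in the dimmest 40% of named probe sets (log2 signal under 4.86), against 85 of the partners. The median SD within a group was 0.164 for antisense genes and 0.117 for partners, on the log2 scale. Of the dim antisense genes 17 of 193 passed at an unadjusted p below 0.05 (6 higher), beside 9.16% of dim probe sets (4.38% higher and 4.78% lower). Of the brighter ones 8 of 94 passed (3 higher), beside 10.3% of brighter probe sets (6.64% higher and 3.71% lower). No array values against background were used here, so whether a dim transcript was present was not tested.

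The 8 lower and 8 higher antisense genes with the smallest unadjusted p follow, the lower ones first. ZEB2-AS1 overlaps the start of ZEB2, a transcription factor of the epithelial-mesenchymal transition, and has been reported to favour its translation. Its level was 3.46, 3.12 and 3.51 in the arrays labelled miR-196b, against 3.82, 3.93 and 4.05 in control (log2 signal). All 3 labelled arrays lay below all 3 control arrays. ZEB2-AS1 thus had a log2 change of -0.57 (SE 0.12, 1.49-fold lower, limma unadjusted p = 0.00216, adjusted p = 0.318). ZEB2-AS1 was also read by a dimmer probe set, with a log2 change of -0.19 and an SE of 0.11. ZEB2 itself was at 4.002, 4.37 and 4.65 in the arrays labelled miR-196b, against 4.62, 4.75 and 4.22 in control, so its groups overlapped, with a log2 change of -0.19 and a 95% interval from -0.65 to 0.27.

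The partner of MCF2L-AS1, MCF2L, is a guanine nucleotide exchange factor. MCF2L-AS1 was at 6.204, 6.16 and 6.16 in the arrays labelled miR-196b, against 6.44, 6.83 and 6.81 in control (log2 signal). The labelled arrays were tightly grouped below the control arrays, 2 of which were higher than the other. Its log2 change was -0.52 (SE 0.11, 1.43-fold lower, limma adjusted p = 0.324). MCF2L had a log2 change of -0.08, with a 95% interval from -0.24 to 0.08, though its groups did not overlap either.

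MORF4L2-AS1, partner of a histone acetyltransferase complex subunit, had the largest antisense change. It was at 4.62, 4.08 and 4.33 in the arrays labelled miR-196b, against 4.72, 4.89 and 5.25 in control (log2 signal). The highest labelled array lay close under the lowest control array. Its log2 change was -0.61 (SE 0.18, 1.53-fold lower, limma adjusted p = 0.390), while MORF4L2 had -0.10 with a 95% interval from -0.28 to 0.07.

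The other 5 lower antisense genes had log2 changes of -0.50 to -0.28 and adjusted p of 0.360 to 0.421 in limma, each with groups that did not overlap. They are those of VLDLR, a lipoprotein receptor (-0.33), SH3PXD2A, a scaffold of invasive cell protrusions (-0.30), TLR8, a sensor of single-stranded RNA (-0.28), ZNRF3, which tags WNT receptors for removal from the membrane (-0.33), and PHACTR3, an actin and phosphatase binding protein (-0.50). A dimmer probe set of VLDLR-AS1 went the other way, at 0.11 with an SE of 0.16. TLR8-AS1 was at 1.90, 1.93 and 1.72 in the arrays labelled miR-196b, against 2.12, 2.12 and 2.14 in control, near the low end of the array. Their partners had log2 changes of -0.11 for TLR8, -0.09 for ZNRF3, -0.08 for SH3PXD2A, 0.11 for PHACTR3 and 0.17 for VLDLR, none of them past an unadjusted p of 0.05.

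On the higher side, ARRDC3-AS1 had the smallest p. Its partner encodes an alpha-arrestin that helps remove receptors from the cell surface. ARRDC3-AS1 was at 4.52, 4.59 and 4.50 in the arrays labelled miR-196b, against 4.28, 4.16 and 4.19 in control (log2 signal). The groups were well apart, with a log2 change of 0.33 and an SE of 0.07 (1.26-fold higher, limma adjusted p = 0.331). ARRDC3 was at 9.28, 8.96 and 8.88 in the arrays labelled miR-196b, against 8.71, 8.87 and 8.73 in control. It lay in the same direction with groups that nearly touched and a log2 change of 0.27 (95% interval -0.01 to 0.54, limma adjusted p = 0.507), and 0.15 without the labelled array 1.

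PAN3-AS1 starts close to PAN3, a subunit of a complex that shortens poly(A) tails of messenger RNAs. PAN3-AS1 was at 4.99, 4.94 and 5.19 in the arrays labelled miR-196b, against 4.55, 4.78 and 4.77 in control (log2 signal). PAN3 was at 9.13, 9.003 and 9.07 in the arrays labelled miR-196b, against 8.82, 8.90 and 8.87 in control. All labelled arrays lay above all control arrays for both genes. The log2 change was 0.34 with an SE of 0.10 for PAN3-AS1 (limma adjusted p = 0.407) and 0.21 with an SE of 0.07 for PAN3 (0.448).

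The remaining 6 higher antisense genes had log2 changes of 0.22 to 0.37 and adjusted p of 0.407 to 0.483 in limma. They are those of HAND2, a developmental transcription factor (0.37), VAC14, a scaffold of a phosphoinositide kinase complex (0.23), CNTFR, a neurotrophic factor receptor (0.29), UMODL1, a uromodulin-like protein (0.34), HM13, a signal peptide peptidase (0.29), and PARD6G, a cell polarity protein (0.22). Only the groups of HM13-AS1 overlapped, where the lowest labelled array was at 4.46 and the highest control array at 4.49. The partners ran from -0.17 (HAND2) to 0.05 (HM13), none past an unadjusted p of 0.05.

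**Figure D2:**
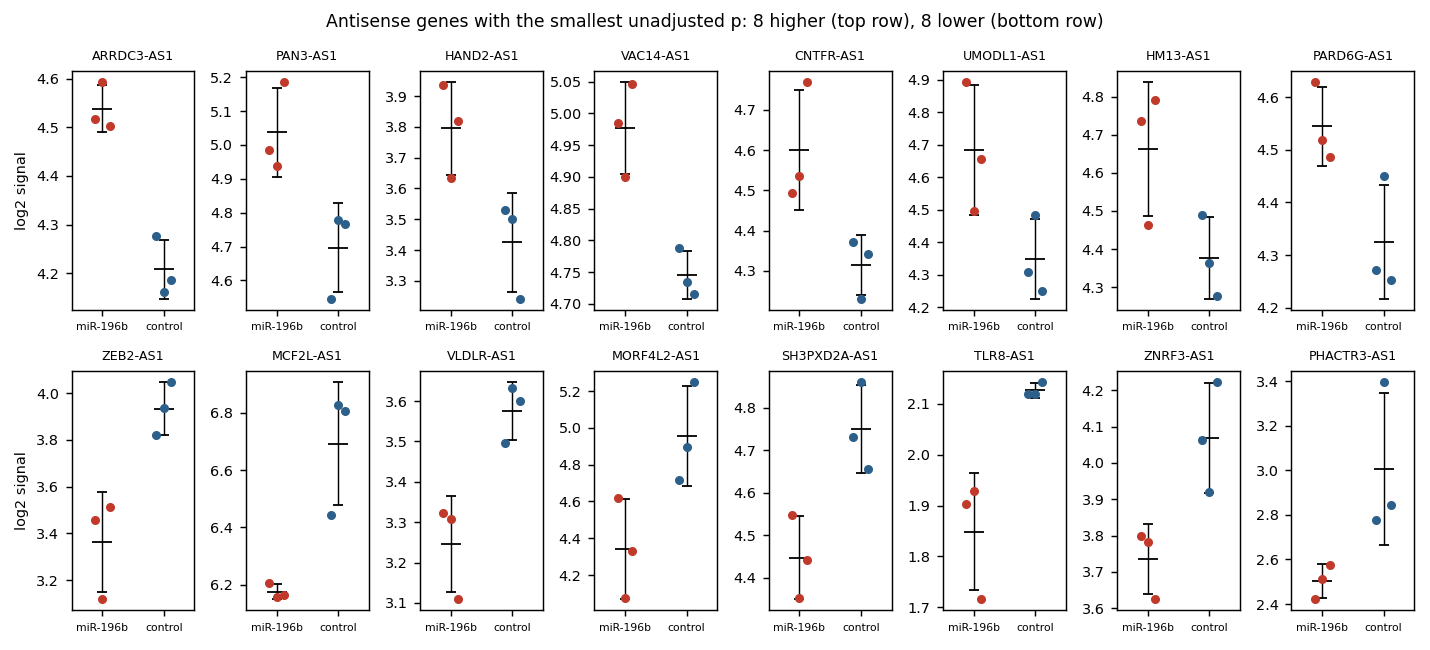
Log2 signal (vertical axes, each panel on its own scale) of the 8 higher and 8 lower antisense genes with the smallest unadjusted p, with arrays labelled miR-196b on the left and control arrays on the right of each panel. Points are arrays, and bars are the mean and SD of 3 arrays. The groups do not overlap in any panel but that of HM13-AS1, and no gene passes the adjusted test.

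Antisense and sense changes went the same way in 144 of 287 pairs, or 50.2%, and opposite ways in 143. Both were higher in 78 pairs and both lower in 66, while the antisense gene was lower and the partner higher in 91 and the reverse held in 52. Taken singly, 157 of the 287 antisense genes were lower and 169 of the 287 partners higher. Whether the 91 pairs go beyond these counts was not tested. Across the 287 pairs the 2 changes correlated at r = 0.13 (0.07 without the labelled array 2), where all points share the same 6 arrays and are not independent. Among the 79 pairs with both genes above the dimmest 40%, 47 went the same way (59.5%), with r = 0.28, against 97 of the other 208 pairs (46.6%), with r = 0.08. After removing group means, the median correlation of a pair over the 6 arrays was -0.01, with quartiles at -0.42 and 0.37.

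Of the 59 pairs with starts within 1000 bases, 33 went the same way (55.9%), with r = 0.16. Among these, 13 of 27 diverging pairs and 20 of 32 pairs facing each other went the same way. Of the 130 overlapping pairs with starts farther apart, 66 went the same way (50.8%), with r = 0.12, and of the 90 without strand 40 did (44.4%). The median antisense change was -0.01 in close pairs and -0.03 in overlapping pairs, beside 0.01 over all genes. These shares were not tested against each other.

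**Figure D3:**
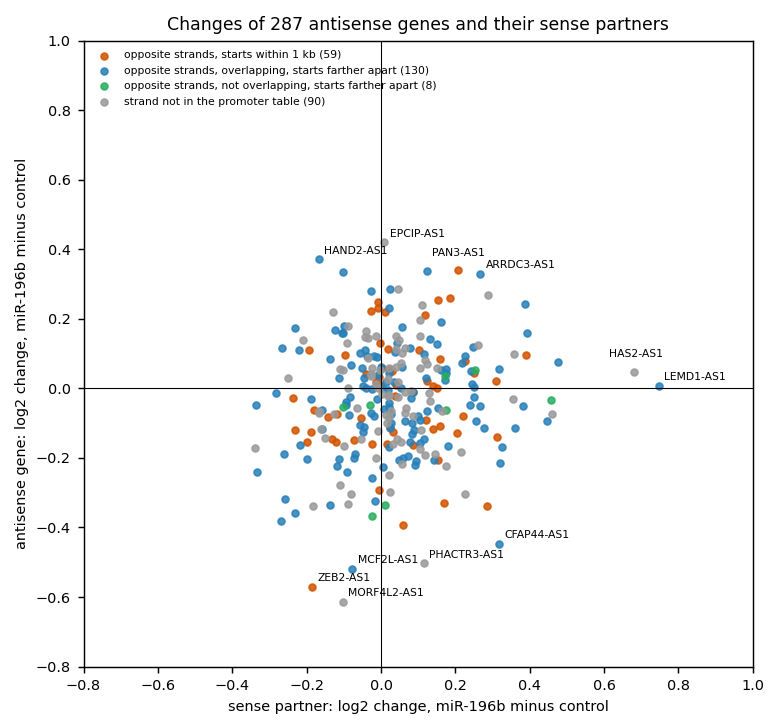
Log2 change (arrays labelled miR-196b minus control) of each antisense gene on the vertical axis against that of its sense partner on the horizontal axis, for 287 pairs coloured by their arrangement in the RefSeq annotation, with the number of pairs in the key. The points form a round cloud (r = 0.13), with HAS2 and LEMD1 far to the right while their antisense genes lie near 0.

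The partners had more unadjusted passes than the antisense genes. At an unadjusted p below 0.05, 42 partners passed, 34 higher and 8 lower, or 14.6%, beside 9.87% of all named probe sets. Of the 202 partners above the dimmest 40%, 33 passed (16.3%), beside 10.3% of probe sets of that brightness. The difference between antisense genes and partners was not tested. In 3 pairs both genes had an unadjusted p below 0.05, in 22 the antisense gene alone and in 39 the partner alone. Whether 3 differs from what the separate shares would give for unlinked genes was not tested. The 3 pairs were those of PAN3, PXN and ZNF503, each with both genes in the same direction.

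PXN encodes paxillin, an adaptor of focal adhesions. PXN-AS1 was at 6.54, 6.64 and 6.56 in the arrays labelled miR-196b, against 6.77, 6.77 and 6.80 in control (log2 signal). PXN was at 8.92, 8.91 and 8.89 in the arrays labelled miR-196b, against 9.16, 9.03 and 9.13 in control. Both were lower in every labelled array, each with a log2 change of -0.20 and an SE of 0.07 (limma adjusted p = 0.437 for PXN-AS1 and 0.453 for PXN). ZNF503, a zinc finger repressor of transcription, had a log2 change of -0.23 (SE 0.09) and ZNF503-AS1 one of -0.36 (SE 0.13, adjusted p = 0.455), and the groups of neither overlapped. Without the labelled array 1 the log2 change of ZNF503-AS1 was -0.23. The other 2 probe sets of ZNF503-AS1 had -0.15 and -0.30 (limma unadjusted p = 0.367 and 0.0910). The one with -0.15 was nearly as bright as the one used.

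The groups did not overlap at 67 partners, or 23.3%, and at 38 antisense genes, or 13.2%, beside 17.2% of all named probe sets. In 12 pairs neither gene's groups overlapped, in the same direction in 10 pairs and in opposite directions in 2. Whether 12 is more than these shares would give for unlinked genes was not tested. The 10 were those of ARRDC3, BRWD1, PAN3 and TMPO, higher, and of MCF2L, MORF4L2, PRR7, PXN, TLR8 and ZNF503, lower. BRWD1, a bromodomain protein of chromatin, and PRR7, a proline-rich membrane protein, were picked after their values were seen. BRWD1-AS1 had a log2 change of 0.08 and BRWD1 one of 0.12, and PRR7-AS1 had -0.22 and PRR7 -0.12. TMPO, of the first 4, encodes a nuclear lamina-associated protein. TMPO-AS1, reported as raised in several tumours, was at 7.83, 7.496 and 7.63 in the arrays labelled miR-196b, against 7.31, 7.46 and 7.42 in control (log2 signal). TMPO was at 9.54, 9.60 and 9.57 in the arrays labelled miR-196b, against 9.38, 9.42 and 9.45 in control. The log2 changes were 0.25 (SE 0.10, limma adjusted p = 0.487) for TMPO-AS1 and 0.15 (SE 0.07, 0.507) for TMPO, and TMPO-AS1 had 0.17 without the labelled array 1. The 2 opposite pairs were those of CFAP44, a protein of cilia and flagella, and WWTR1, which encodes the transcriptional coactivator TAZ. WWTR1, picked after its values were seen, had a log2 change of 0.32 (SE 0.09, adjusted p = 0.360) and WWTR1-AS1 one of -0.21 (SE 0.09, adjusted p = 0.507).

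The difference of antisense minus sense signal was taken per array to test whether the 2 genes of a pair changed unequally. With 3 arrays in each group, the smallest p of the exact permutation test (two-sided) is 0.1, so no pair could pass. The groups of this difference did not overlap in 43 of 287 pairs, or 15%, beside 17.2% of all named probe sets taken singly. Of the 43, 11 had a higher and 32 a lower difference in the arrays labelled miR-196b. The median log2 change was itself -0.02 for antisense genes and 0.02 for partners. The pairs that follow were chosen for the size of this same difference, so their p-values give no support of their own. CFAP44 had the largest negative difference of change, -0.76 (exact permutation p = 0.1). CFAP44-AS1 was at 1.92, 2.66 and 2.67 in the arrays labelled miR-196b, against 2.98, 2.74 and 2.87 in control (log2 signal). CFAP44 was at 6.41, 6.56 and 6.56 in the arrays labelled miR-196b, against 6.09, 6.29 and 6.203 in control. The antisense value rests much on 1 labelled array, as CFAP44-AS1 had a log2 change of -0.45 with it and -0.20 without it.

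LEMD1 and HAS2 followed, with differences of change of -0.74 and -0.63. LEMD1, a nuclear envelope protein seen mostly in testis and tumours, was at 4.98, 4.71 and 5.48 in the arrays labelled miR-196b, against 4.50, 4.32 and 4.11 in control (log2 signal). HAS2, a hyaluronan synthase, was at 3.75, 4.05 and 3.95 in the arrays labelled miR-196b, against 3.58, 3.23 and 2.90 in control. All labelled arrays lay above all control arrays for both. LEMD1 had a log2 change of 0.75 (SE 0.20, limma adjusted p = 0.360) and HAS2 one of 0.68 (SE 0.17, 0.359), while LEMD1-AS1 had 0.01 and HAS2-AS1 0.05, with 95% intervals from -0.41 to 0.43 and from -0.26 to 0.36. The exact permutation p of the difference was 0.1 for LEMD1 and 0.2 for HAS2.

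SSTR5, a somatostatin receptor, and SSTR5-AS1 share 194 bases of their promoter windows and had changes of opposite sign. SSTR5-AS1 was at 4.38, 4.20 and 4.42 in the arrays labelled miR-196b, against 4.71, 4.98 and 4.32 in control (log2 signal). SSTR5 was at 5.79, 6.10 and 5.93 in the arrays labelled miR-196b, against 5.80, 5.59 and 5.58 in control. Each gene's groups overlapped, and those of the difference did not, with a difference of change of -0.63 (exact permutation p = 0.1). PHACTR3 had a difference of -0.62 (exact permutation p = 0.1), from -0.50 in PHACTR3-AS1. Without the control array 2 the log2 change was -0.31 for PHACTR3-AS1 and -0.18 for SSTR5-AS1, and without the control array 3 that of SSTR5-AS1 was -0.51.

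The largest positive differences were smaller. HAND2 had 0.54, UMODL1 0.44, EPCIP, an exosomal polycystin-binding protein, 0.41, and DCST1, a membrane protein, 0.38 (each exact permutation p = 0.1), and HPN, the serine protease hepsin, had 0.41 (p = 0.2). HAND2-AS1 was at 3.94, 3.64 and 3.82 in the arrays labelled miR-196b, against 3.53, 3.50 and 3.24 in control, and HAND2 at 4.92, 4.77 and 4.61 in the arrays labelled miR-196b, against 5.12, 4.90 and 4.78 in control (log2 signal). EPCIP-AS1 was at 3.32, 3.48 and 4.08 in the arrays labelled miR-196b, against 3.23, 3.20 and 3.18 in control. Its log2 change of 0.42 owed most to 1 labelled array, and was 0.19 without it.

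**Figure D4:**
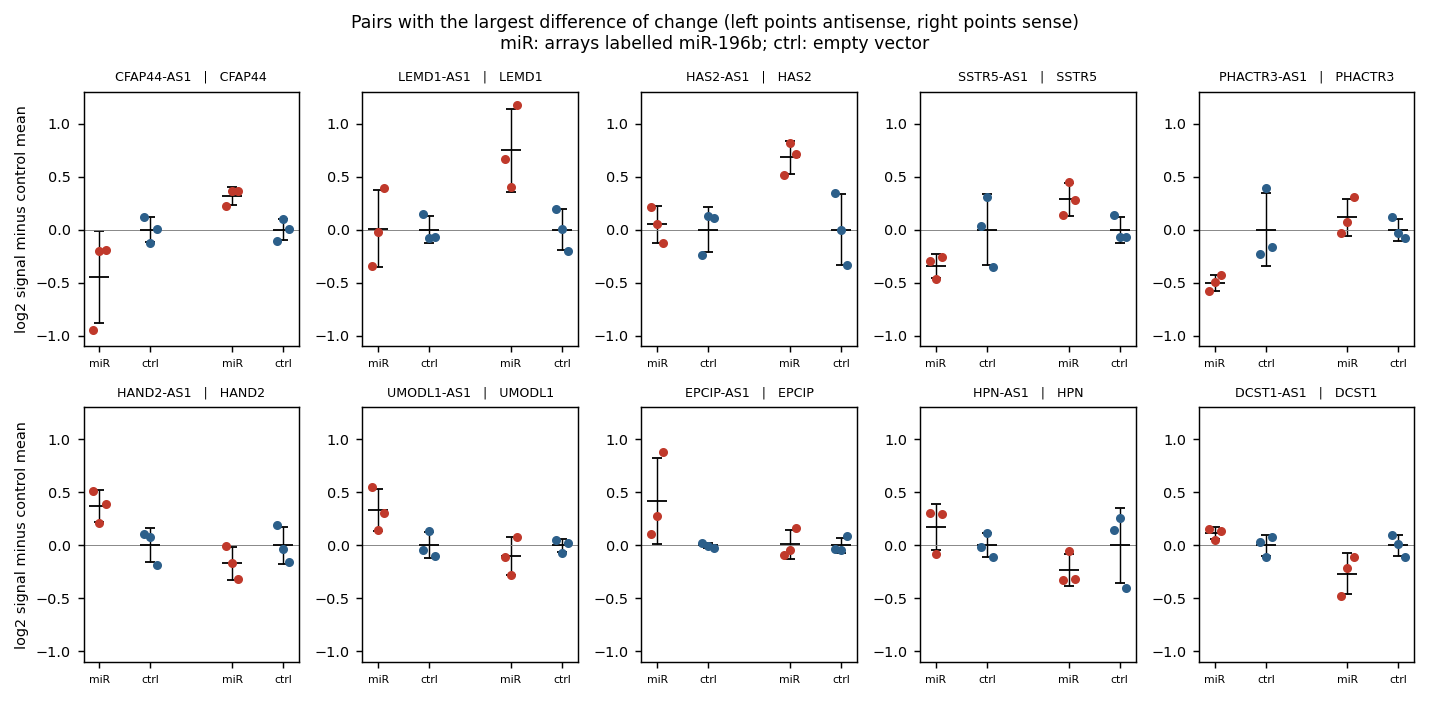
Log2 signal minus the control mean (vertical axes) of the 10 pairs with the largest differences of change, with the antisense gene on the left and its partner on the right of each panel, and labelled arrays left of control arrays. Points are arrays, and bars are the mean and SD of 3 arrays. In the LEMD1 and HAS2 panels the sense points of the labelled arrays lie above control while the antisense points overlap.

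By the role of the partner, 130 of the 287 antisense genes fell into 8 lists, which are not complete. The lists leave out 157 partners, among them MORF4L2, CNTFR, VLDLR, MCF2L and ZNRF3, and 15 antisense genes outside the lists passed unadjusted, 5 higher and 10 lower. In the lists 0 members passed the adjusted test. Among 29 antisense genes of signalling genes 10 were higher and 19 lower. Their median log2 change was -0.12, beside 0.01 over all genes, and 2 passed unadjusted, TLR8-AS1 and the antisense gene of the interleukin receptor IL21R, both lower. CNTFR-AS1 and VLDLR-AS1, whose partners are receptors outside this list, had 0.29 and -0.33. Among 11 antisense genes of zinc finger genes 9 were higher and 2 lower, with a median of 0.09, and 1 passed unadjusted, the lower ZNF503-AS1. Among 20 of transcription factor genes 10 were higher and 10 lower (median -0.01), with ZEB2-AS1 lower and HAND2-AS1 higher past the unadjusted test. Antisense genes of cytoskeleton, adhesion, matrix and vesicle transport genes were higher in 7 and lower in 14 of 21 (median -0.05, 2 unadjusted passes, PXN-AS1 lower and PARD6G-AS1 higher).

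Those of RNA processing and translation genes were higher in 11 of 15 (median 0.03), with PAN3-AS1 the 1 unadjusted pass. Those of chromatin, repair and division genes were lower in 8 of 13 (median -0.07), with TMPO-AS1 the 1 unadjusted pass, higher. MORF4L2-AS1 (-0.61), whose partner is a chromatin gene outside this list, is not counted there. Those of metabolism and protein turnover genes split 10 and 10 (median -0.01), with USP30-AS1, partner of a mitochondrial deubiquitinase, the 1 unadjusted pass (-0.22). The list of channels and transporters held SLC60A1-AS1 alone (0.23, adjusted p = 0.634). In the lists the share past the unadjusted test was at most 10%, beside 9.87% of all named probe sets.

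None of the antisense RNAs listed for their known part in tumours passed the adjusted test. FOXD2-AS1 was at 6.68, 6.25 and 6.12 in the arrays labelled miR-196b, against 6.79, 6.63 and 6.64 in control (log2 signal), with overlapping groups and a log2 change of -0.34 (95% interval -0.68 to 0.01, limma adjusted p = 0.507), and -0.22 without the labelled array 3. ZEB1-AS1 starts close to ZEB1, a repressor of epithelial genes, and was at 4.67, 4.44 and 4.73 in the arrays labelled miR-196b, against 4.53, 4.54 and 4.48 in control, with overlapping groups. It had a log2 change of 0.10 (95% interval -0.12 to 0.31), beside 0.39 (0.03 to 0.75) for ZEB1, neither past the adjusted test (0.761 and 0.482). AFAP1-AS1 (0.06, 95% interval -0.17 to 0.29), PRC1-AS1 (0.10, -0.23 to 0.43) and LOXL1-AS1 (-0.05, -0.23 to 0.14) had intervals on both sides of 0. LOXL1, a crosslinking enzyme of elastic fibres, was at 7.34, 7.34 and 7.39 in the arrays labelled miR-196b, against 7.53, 7.78 and 7.77 in control, a log2 change of -0.34 (SE 0.09, limma adjusted p = 0.360).

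With a trended, robust variance prior, 5 of 287 partners and 0 of 287 antisense genes were called, beside 91 of all 16098 named probe sets. These 5 were thus picked after their values were seen. DENND5B, an exchange factor of RAB GTPases, was at 8.76, 8.73 and 8.71 in the arrays labelled miR-196b, against 8.25, 8.24 and 8.28 in control (log2 signal), with a log2 change of 0.48 (limma adjusted p = 0.144 in the main test and 0.00171 with the trended prior). NECTIN3, an adhesion receptor (0.46), TTC21B, a ciliary transport protein (0.39), and ADD3, the cytoskeletal protein adducin 3 (0.39), were higher, and GAS6, a ligand of the TAM receptor kinases (-0.34), lower, with adjusted p of 0.0234 to 0.0485 under that prior and 0.318 to 0.338 in the main test. Their antisense genes had log2 changes of 0.08 (DENND5B-AS1), -0.03 (NECTIN3-AS1), 0.16 (TTC21B-AS1), 0.24 (ADD3-AS1) and -0.17 (GAS6-AS1), each with overlapping groups. With 1 array left out ADD3-AS1 ranged from 0.0687 (without the control array 3) to 0.40 (without the control array 1), and GAS6-AS1 from -0.30 (without the labelled array 3) to -0.097 (without the control array 1). The other probe set of GAS6-AS1 had 0.12.

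Of the 16 antisense genes read by several probe sets, 11 had log2 changes of 1 sign in all of them. The brighter probe set of GATA3-AS1, antisense to a transcription factor of T cells and epithelia, had a log2 change of -0.19 (SE 0.16, limma adjusted p = 0.715), and its dimmer one had -0.48 (SE 0.13, adjusted p = 0.360). GATA3-AS1 was picked after its values were seen. In GAS6-AS1, RPL26L1-AS1, STX18-AS1, STXBP5-AS1 and VLDLR-AS1 the signs differed between probe sets. RPL26L1-AS1, beside a ribosomal protein-like gene, had -0.15 and 0.18, and STX18-AS1, beside a syntaxin gene, 0.10 and -0.19, in the order of brightness.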

How the data were processed

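Total RNA of 6 HCT116 cultures was hybridised to whole-transcript arrays after biotin labelling, per the labels. The deposited log2 values, 1 per probe set and array, were made with RMA and Partek 6.6, per the submitters' processing notes. Steps and options are not given in the sources used here. RMA usually includes quantile normalization between arrays, which removes differences in overall level, and a log scale of base 2 was assumed, as is usual for RMA. The number of arrays limits the precision.

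Of 53617 probe sets, 16098 had 1 gene symbol in the platform annotation (14884 genes), 0 several, and 37519 no symbol here. All 287 antisense symbols equalled the current RefSeq symbol of their gene identifier. Levels were fitted with lmFit and eBayes (limma 3.58.1, R 4.3.3) on the 16098 named probe sets, with 4 residual and 3.23 prior degrees of freedom, and Benjamini-Hochberg adjustment over all of them. The fit was tested on simulated data. Of a gene's probe sets, the one with the highest mean was used; 16 antisense genes and 7 partners had several, whose directions differed in 5 and 1 of them. Slides and scan dates were not used, and batches were not tested. No array repeated the values of another.

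The members, lists and tests were chosen with earlier results of these data known. Named were the 8 higher and 8 lower antisense genes with the smallest unadjusted p, the 5 largest differences of change in each direction, the smallest p of each role list, 10 antisense RNAs known from tumours where measured, and any called gene. Alternatives were a filter on dim probe sets, a trended and robust variance prior, median centring, repeated quantile normalization, a replicate block, all probe sets, averaging over the probe sets of each gene, current symbols and each array left out in turn.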

Additional observations from a re-analysis of the deposited data

How the results depend on the processing

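The count of called antisense genes was 0 under every alternative run. The smallest limma adjusted p ran from 0.0675 (trended, robust variance prior) to 0.555 (all probe sets of the array). At unadjusted p below 0.05, 22 to 33 of 287 antisense genes passed. Without the dimmest 40% of probe sets 12 of 79 (15.2%) did, where 14.4% of all probe sets passed. With 1 array left out, the antisense share lay above that of all named probe sets in some runs and below it in others. It ran from 11.5% beside 8.47% (without the labelled array 3) to 7.67% beside 8.33% (without the control array 3). With all probe sets of the array it was 7.67% beside 6.91%. The count of called sense partners was 0 except with the trended, robust prior, where it was 5 of 287 (4 higher), beside 91 of 16098 named probe sets. Pairs whose groups of antisense minus sense did not overlap numbered 43, 62 to 82 with 1 array left out, 99 with the replicate block and 9 of 79 pairs without the dimmest 40% of probe sets. Fewer arrays, centring on replicate means and fewer pairs move this count by construction. Same-direction pairs numbered 144, 137 to 157 with 1 array left out, and 47 of 79 without the dimmest 40%. Their correlation ranged from 0.07 to 0.14 with 1 array left out.

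Whether the arrays' numbers pair them was not settled. Same-numbered arrays deviated together only weakly, at r = 0.0305, 0.0369 and 0.0085, and 4 of 6 arrays correlated best with their own number. With the replicate block 1 named probe set was called, against 9 without it, and 0 among antisense genes and partners. The block also leaves fewer residual degrees of freedom.

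Of 552 values of named genes under other settings, 546 kept direction and side of the threshold, 5 passed it and 1 turned, LEMD1-AS1 at -0.00011 with median centring. With 1 array left out 436 of 456 kept both and 20 turned, all from log2 changes of -0.08 to 0.08. Ranges of log2 change were -0.016 to 0.14 for AFAP1-AS1, -0.0165 to 0.19 for DENND5B-AS1, -0.0723 to 0.14 for HAS2-AS1, -0.18 to 0.18 for LEMD1-AS1, -0.12 to 0.0844 for NECTIN3-AS1, -0.12 to 0.16 for CNTFR, -0.0684 to 0.0595 for EPCIP, -0.10 to 0.0889 for FOXD2, -0.21 to 0.0594 for SH3PXD2A, -0.084 to 0.12 for SLC60A1 and -0.0142 to 0.0411 for VAC14. The cause was not tested. Of the antisense genes 193 lay in the dimmest 40% of probe sets, and whether signal over background limited the calls was not tested.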
